A study of Gallus gallus with 21 samples.

Results

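The genes described here lie on the first 25 Mb of the chicken Z chromosome. A gene was a member if its first listed exon record is on Z, its smallest exon start is below position 25000000 of the GRCg6a assembly, and its mean level over all 21 libraries is at least 1 CPM (CPM is the count of a gene over the total of its library, brought to one common total). Of 24356 genes in the count table, 433 lie in this stretch and 232 of them reached 1 CPM. The other 201 did not: 68 had no count in any library and 133 had at least 1 count.

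RNA sequencing counted poly(A) transcripts in the trunk part of the neural tube, the forerunner of the spinal cord, of 21 chick embryos. The control group (CTRL) holds 9 embryos whose genotype is labelled WT, and the KO group holds 12 embryos labelled MOXD1 KO, in which the MOXD1 gene was targeted with CRISPR/Cas9 constructs. All constructs were injected into the lumen of the neural tube at Hamburger Hamilton stage 10+/11 and electroporated on one side, so the tissue sequenced is a mixture of cells that did and did not receive them. Embryos given CRISPR/Cas9 constructs stayed at room temperature for 6 to 10 hours before further incubation, and neither the share of edited cells nor the control construct, the strain or the sex of the embryos is given in the sources used here.

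In birds, females carry a Z and a W chromosome and males a pair of Z chromosomes. Birds are known for having no chromosome-wide silencing of a Z in males, and many Z genes are transcribed more in males than in females by less than the difference in copies. A ratio of 1 between male and female tissue would be equal output, and a ratio of 2 would be output in proportion to the number of Z copies.

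Total counts ran from 16164404 to 21133788 per library, and 12473 to 13099 genes per library reached 1 CPM. Genes on the W chromosome took 0.00202% to 0.00455% of counts in 6 libraries, called low-W here, and 0.180% to 0.239% in the other 15, called W-positive. The low-W libraries are CTRL replicate 9 and KO replicates 1, 3, 5, 9 and 10, so the set holds 1 of 9 CTRL and 5 of 12 KO libraries. The sets were made from W counts, with a limit of 0.1%, and not from a label; no Z gene entered them, and tests between them describe these libraries. CTRL replicate 1 and KO replicate 8, both W-positive, stood apart from the other libraries in earlier results on these data, and the leading results are also given without both.

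The 232 members as a whole took a larger share of counts in the low-W libraries. Their summed share was 1.29% ± 0.0400 (SD, n = 6) in low-W libraries, from 1.22% to 1.32%, and 0.879% ± 0.0415 (SD, n = 15) in W-positive libraries, from 0.779% to 0.941%. The sets did not overlap. The 5 low-W KO libraries had 1.28% ± 0.0405 (SD), and CTRL replicate 9, the only low-W control, had 1.32%. A median taken over the members gave the same order: relative to the mean of the W-positive libraries, the median member stood at 1.33 to 1.58 in the low-W libraries and at 0.823 to 1.1 in the W-positive libraries. In RNA from whole tissue, fewer cells of a type and less RNA per cell cannot be told apart.

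**Figure D1:**
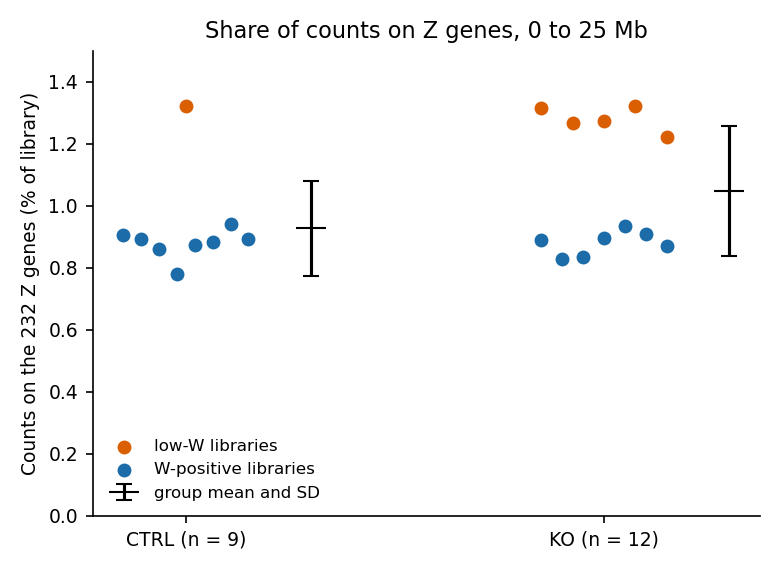
Share of each library's counts on the 232 members, in percent, with 1 point per library, by group and by W class, with the mean and SD of each group as a bar. The 6 low-W libraries sit between 1.22% and 1.32%, above all 15 W-positive libraries, which sit between 0.779% and 0.941% in both CTRL and KO.

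Gene by gene, the ratio of mean CPM in low-W libraries to mean CPM in W-positive libraries was spread widely around a median of 1.45. The quartiles were 1.2 and 1.72, and the lowest and highest 5% of members lay below 0.851 and above 2.04. Of the 232 members, 48 were near 1 (a ratio of 0.8 to 1.2), which is 20.7% with an exact binomial 95% interval from 15.7% to 26.5%. Near 1.5 (1.3 to 1.7) there were 82 members, 35.3% with an interval from 29.2% to 41.9%. Near 2 (1.8 to 2.2) there were 37 members, 15.9% with an interval from 11.5% to 21.3%. Between these windows lay 51 members, below 0.8 lay 10 and above 2.2 lay 4. These intervals treat genes as independent, which genes measured in the same libraries are not. They also leave out the error that the libraries bring to each ratio. With each library left out in turn, the share near 1.5 ran from 30.2% to 44.0%.

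Genes on autosomes and unplaced scaffolds, at the same minimum of 1 CPM, had a different distribution. Of these 12366 genes, 79.2% were near 1, 3.08% near 1.5 and 0.210% near 2, and their median ratio was 0.954. The ratio was above 1 in 202 of 232 members (87.1%) and in 34.3% of the autosomal and unplaced genes. Divided by the autosomal median, the median ratio of the members was 1.52. The SD of log2 ratios was 0.47 over members against 0.32 over the autosomal and unplaced genes. Among genes of at least 10 CPM, where counting noise is smaller, it was 0.35 over 162 members against 0.22.

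**Figure D2:**
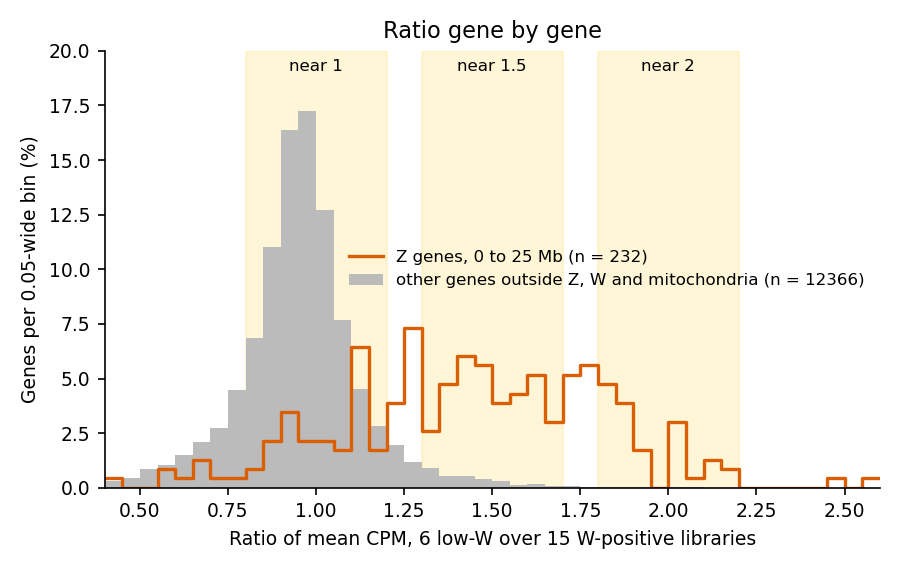
Distribution of the ratio of low-W to W-positive mean CPM, as the percent of genes per bin, for the 232 members and for 12366 autosomal and unplaced genes, with the windows near 1, 1.5 and 2 shaded (y axis, percent of genes in each bin). Autosomal genes gather near 1 (79.2% in that window), while members spread from below 1 to above 2 around a median of 1.45; 3 members and 87 autosomal or unplaced genes lie outside the plotted range.

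The other stretches of Z had median ratios above 1 as well. Beyond 60 Mb, 122 genes at the same minimum had a median ratio of 1.53, with 20.5% near 1, 31.1% near 1.5 and 20.5% near 2. From 35 to 60 Mb, 166 genes had a median of 1.43, with 28.3%, 34.3% and 18.1%. From 25 to 35 Mb, 61 genes had a median of 1.21, with 39.3%, 26.2% and 9.84%. These stretches were compared by description and the differences from the first 25 Mb were not tested.

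Single genes were then asked whether their ratio is larger than the spread between libraries. In edgeR's quasi-likelihood test with group as a term, fitted on all 13809 tested genes, 88 of the 232 members were higher in low-W libraries at an adjusted p under 0.05, against 1.46% of all genes tested. No member was called lower (0.282% of all genes). All genes tested include the members and the W genes, and W counts made the sets. At an unadjusted p under 0.05, 140 members were higher (3.22% of all genes) and 2 were lower (1.75% of all genes). DESeq2 called 99 members higher and 1 lower, where it called 1.24% and 0.279% of all genes. Of the 13125 autosomal and unplaced genes tested by edgeR, 2 were called higher and 3 lower. The median log2 difference was 0.58 over members, a fold of 1.49, and -0.05 over the autosomal and unplaced genes.

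The calls lie mostly among the higher ratios. Windows and calls come from the same counts of the same libraries, so this order is largely built in. By window, 0 of 48 members near 1, 35 of 82 near 1.5, 31 of 37 near 2, 21 of 51 between these windows, 1 of 4 above 2.2 and 0 of 10 below 0.8 were called higher. In 42 members (18.1%) every low-W library was above every W-positive library, which held for 0.661% of all genes of at least 1 CPM. In 0 members was every low-W library below every W-positive library, against 0.261% of all genes. All genes here include the members, and also the W genes, whose counts made the sets and are low in low-W libraries. Of 12366 autosomal and unplaced genes, 0 had every low-W library above every W-positive library, and 1 had every low-W library below. Without CTRL replicate 1 and KO replicate 8 the median ratio of the members was 1.47, 88 members were called higher by edgeR and 51 did not overlap. Leaving libraries out can only keep or raise the count that does not overlap. The shares of all genes without both libraries are not given here, so 51 is not comparable with the 0.661% above.

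The error of a single gene limits how finely the windows can be told apart. The median standard error of a member's log2 difference was 0.20 in edgeR. The 95% interval of that difference held a ratio of 1 in 90 members, 1.5 in 168 and 2 in 120, and 25 members held all 3 values. Intervals holding 1.5 and 2 together were found in 91 members, and 61 held 1 and 1.5 together. In 140 members the whole interval lay above 1, in 2 below 1, in 112 below 2 and in 0 above 2. In 45 members the interval lay wholly between 1 and 2, and in 3 it lay above 1 and below 1.5.

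The single members below are given by Ensembl gene ID or by coordinates on the GRCg6a Z chromosome, since the table does not pair its IDs with symbols and the available list of symbols, from another assembly, matched none of them. Their functions are therefore not stated. Levels are in CPM and, since CPM is not scaled for gene length, they are compared between libraries and not between genes. The first 4 genes were picked for their ratio among members of at least 10 CPM, so their ratios are a description of the extremes.

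ENSGALG00000002599, at 9282572 to 9296247 on the plus strand, had the highest ratio. Its level was 28.1, 49.8 and 58.9 CPM (lowest, median, highest) in low-W libraries and 11.1, 18.8 and 26.5 CPM in W-positive libraries. All 6 low-W libraries lay above all 15 others. The ratio was 2.45, and the edgeR log2 difference was 1.27 with a standard error of 0.18 (adjusted p = 1.11e-04). The ratio within KO libraries was 2.58, and CTRL replicate 9 over the other controls gave 1.79. This gene overlaps 1 annotated gene on the opposite strand.

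ENSGALG00000052579, at 24759240 to 24760422 on the plus strand, had the next highest ratio, 2.18. Its level was 33.7, 41.8 and 53.5 CPM in low-W libraries and 6.27, 16.6 and 45.1 CPM in W-positive libraries, so that 2 of 6 low-W libraries lay above the W-positive range and the others lay within it. Its W-positive libraries were spread over more than the difference between the sets. The edgeR log2 difference was 1.08 with a standard error of 0.30 and did not pass (adjusted p = 0.0814). It passed without CTRL replicate 3 (adjusted p = 0.00697), without CTRL replicate 7 (0.0479) and without KO replicate 6 (0.0470) in the same edgeR test, and with DESeq2 (0.0478).

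Among members of at least 10 CPM, the 2 lowest ratios belonged to genes with means of 10.1 and 13.3 CPM. ENSGALG00000014769, at 20653928 to 20692517 on the plus strand, stood at 5.56, 7.02 and 8.91 CPM in low-W libraries and at 6.64, 10.7 and 17 CPM in W-positive libraries. The ranges overlapped, the ratio was 0.645, and the edgeR log2 difference of -0.51 with a standard error of 0.18 did not pass (adjusted p = 0.402). ENSGALG00000004518, at 22436116 to 22452194 on the minus strand, stood at 6.90, 9.14 and 16 CPM against 6.25, 12.0 and 53.3 CPM. Its ratio of 0.684 had a log2 standard error of 0.36, and 1 library, CTRL replicate 1, held the value of 53.3 CPM. The edgeR log2 difference was -0.45 and did not pass (adjusted p = 0.996); without CTRL replicate 1 it was -0.26, and without KO replicate 8 as well it was -0.14.

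Members close to 1.5 varied in how cleanly the libraries separated. The gene at 22789928 to 22948747 on the plus strand was at 70.7, 74.3 and 95.4 CPM in low-W libraries and at 37.5, 56.5 and 64.5 CPM in W-positive libraries. The sets did not overlap, the ratio was 1.49 and the edgeR log2 difference was 0.60 with a standard error of 0.11 (adjusted p = 0.00280). Without CTRL replicate 9 this difference was 0.52 and did not pass (adjusted p = 0.0601). The gene at 7940896 to 7943905 on the minus strand was at 75.6, 113 and 121 CPM against 53.5, 71.4 and 96.4 CPM. Here 4 of 6 low-W libraries lay above the W-positive range. Its ratio was 1.5 and its edgeR log2 difference 0.53 with a standard error of 0.12 (adjusted p = 0.0238), a call lost in 13 of 31 alternatives. The losses include leaving out any of KO replicates 1, 2, 3, 5, 7, 9 and 11 singly, with adjusted p from 0.0522 to 0.0955 in edgeR. The ratio of this gene was 1.54 within KO libraries, and CTRL replicate 9 over the other controls gave 1.11. For the gene at 22789928 to 22948747 these values were 1.41 and 1.81.

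The members with the highest CPM both stood close to 2. The gene at 2151248 to 2159334 on the plus strand was at 726, 920 and 1007 CPM in low-W libraries and at 359, 479 and 550 CPM in W-positive libraries. Its ratio was 1.85 and its edgeR log2 difference 0.87 with a standard error of 0.10 (adjusted p = 4.25e-06). The gene at 8540925 to 8562119 on the minus strand was at 683, 729 and 855 CPM against 237, 426 and 491 CPM. Its ratio was 1.84 and its edgeR log2 difference 0.85 with a standard error of 0.12 (adjusted p = 1.25e-04). In both genes the sets did not overlap.

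**Figure D3:**
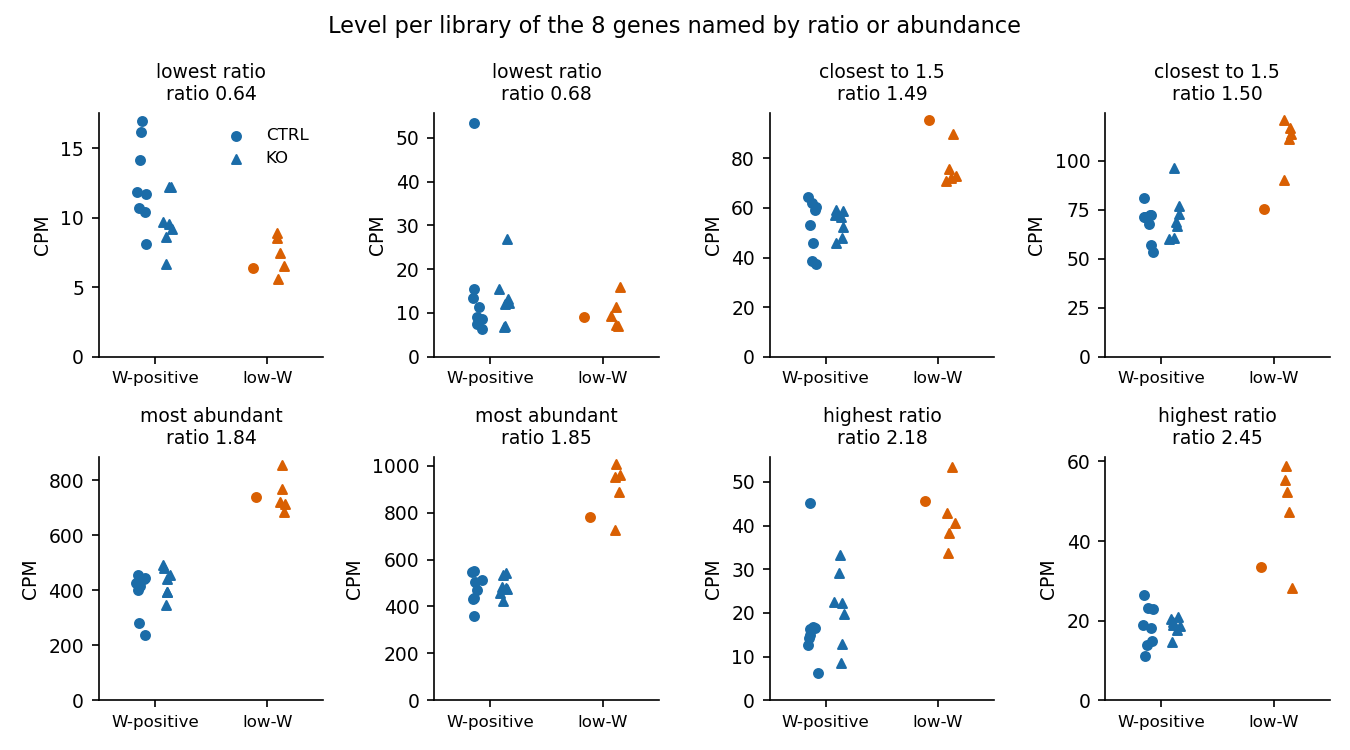
Level in CPM of the 8 members described above, 1 panel per gene in order of ratio and 1 point per library (circles CTRL, triangles KO), W-positive beside low-W. In the panels with ratios of 1.49, 1.84, 1.85 and 2.45, all low-W points lie above all W-positive points; in the other 4 panels the sets overlap.

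Members with high CPM also differed in ratio. Among the 20 members of at least 100 CPM the ratio ran from 0.912 to 2.11 with a median of 1.45: 5 were near 1, 10 near 1.5, 3 near 2, 2 between these windows, 0 below 0.8 and 0 above 2.2. In 5 of the 20 every low-W library was above every W-positive library (0.661% of all genes of at least 1 CPM). EdgeR called 10 of the 20 higher (1.46% of all genes tested). The shares among all genes of at least 100 CPM are not given here. The following members of this abundant set were chosen after their values were seen, to show both ends. The gene at 10102092 to 10116802 on the plus strand was at 169, 267 and 336 CPM in low-W libraries and at 97.2, 114 and 161 CPM in W-positive libraries, with no overlap. Its ratio was 2.11, the edgeR 95% interval of its log2 difference ran from 0.84 to 1.38, and the ratio was 2.14 within KO and 2.17 within CTRL libraries.

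At the other end stood members with a ratio close to 1. The lowest of the set, 0.912, was that of the gene at 12917710 to 12920908 on the minus strand. Its ratio was 1.04 within KO libraries, and CTRL replicate 9 over the other controls gave 0.547. It overlaps 1 annotated gene on the same strand. The gene at 366942 to 378517 on the plus strand was at 78.9, 103 and 109 CPM against 80.7, 110 and 129 CPM, with overlapping ranges and a ratio of 0.927. Its edgeR interval ran from -0.27 to 0.10 on the log2 scale, which leaves out a log2 difference of 0.58, the median of the members. The ratio was 0.935 within KO and 0.942 within CTRL libraries. The gene at 19421087 to 19478292 on the plus strand had a ratio of 0.942 and an interval from -0.32 to 0.13. The gene at 9172857 to 9204072 on the plus strand also had a ratio close to 1, 0.967, but its levels ran from 234 to 572 CPM in low-W and from 138 to 501 CPM in W-positive libraries. Its interval, from -0.49 to 0.57, was wide enough to hold ratios well below and above 1.

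Median ratios showed little order along the chromosome. In windows of 5 Mb from the start of Z, the median ratios were 1.44 (36 members), 1.38 (52), 1.55 (44), 1.53 (35) and 1.48 (65). The members near 1 in these windows numbered 10, 12, 10, 7 and 9, and those near 2 numbered 6, 8, 7, 7 and 9. Members whose libraries did not overlap were found in every window, 6, 11, 6, 6 and 13 in number (0.661% of all genes of at least 1 CPM). The log2 ratios of neighbouring members were almost unrelated, with a Pearson r of 0.03 and a Spearman rho of 0.07 over 231 pairs of genes that share the same libraries. The median absolute gap between neighbours was 0.37 on the log2 scale.

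**Figure D4:**
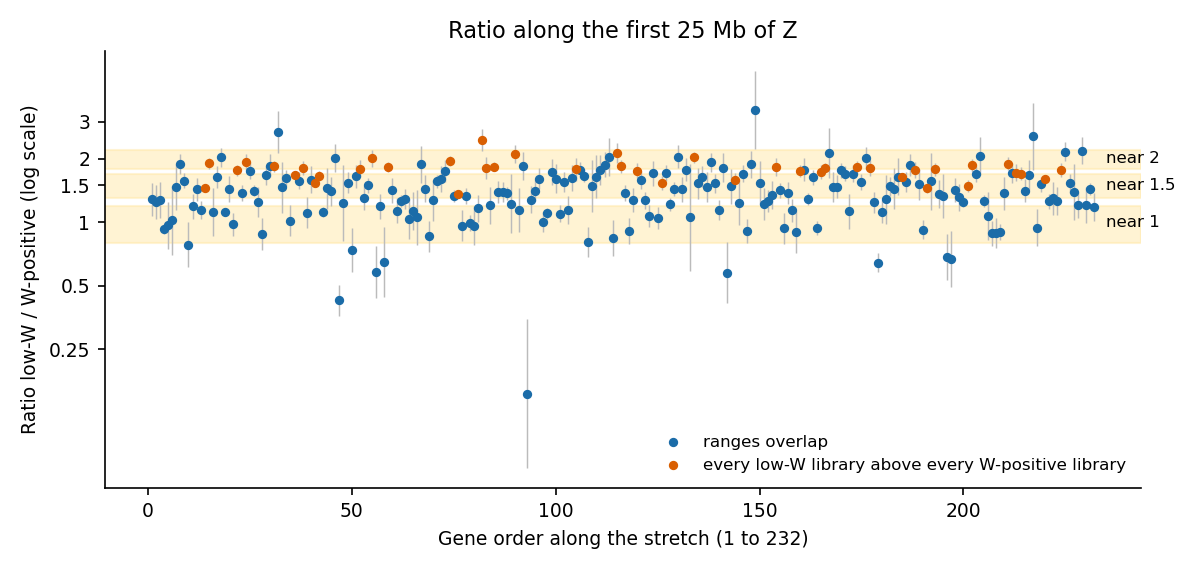
Ratio of low-W to W-positive mean CPM (log axis) for the 232 members in their order along Z, 1 point per gene with its standard error as a line, and with the windows near 1, 1.5 and 2 shaded. Members near 1, 1.5 and 2 are mixed along the whole stretch, and the members whose libraries do not overlap, 42 in all, occur throughout.

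The ratio was related weakly to the level and structure of the genes. The members were split by mean CPM into 78 of the lowest, 77 of middle and 77 of the highest level. In the lowest class the median ratio was 1.38 with an SD of 0.65 on the log2 scale. It was 1.47 with 0.35 in the middle class and 1.5 with 0.32 in the highest. The lowest class holds the lowest ratio of any member, 0.154, in ENSGALG00000027887. That gene was at 112 CPM in CTRL replicate 1 and at 0.237 to 5.88 CPM in the other controls. How much it adds to the SD of 0.65 was not tested. The low-W and W-positive libraries did not overlap in 4, 18 and 20 members of these classes (0.661% of all genes of at least 1 CPM). The share of all genes at each level is not given here, so the rise with level is not read as a trait of the members. Over all members, log2 ratio and log2 level had a Pearson r of 0.11. In 3 classes of the same sizes by exon length, the median ratio was 1.48 in the shortest, 1.5 in the middle and 1.41 in the longest, and 17, 14 and 6 of their members were near 2. The 120 members on the plus strand had a median of 1.48 and the 112 on the minus strand one of 1.4. The 22 members that overlap a gene on the same strand, whose shared reads were left out of the counts, had a median of 1.54, against 1.45 in the other 210. These relations are across genes of the same libraries and were not tested.

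The genes next to the limits of position and level had these values. The last gene to start inside 25 Mb, at 24956185 to 25022351 on the minus strand, had a mean of 5.71 CPM and a ratio of 1.18. The first beyond it, at 25036411 to 25112335 on the minus strand, had 79.8 CPM and a ratio of 1.14. The member of the lowest level, 1.06 CPM, had a ratio of 1.56, and the highest gene left out, at 0.947 CPM, had one of 1.37.

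The 2 labelled groups give separate estimates of the ratio, since they share no library. Within KO, 5 low-W over 7 W-positive libraries gave a median of 1.42, with 58 members near 1 (25%), 86 near 1.5 (37.1%) and 32 near 2 (13.8%). Within CTRL, 1 low-W over 8 W-positive libraries gave a median of 1.59, with 42 near 1 (18.1%), 62 near 1.5 (26.7%) and 49 near 2 (21.1%). The CTRL value rests on CTRL replicate 9 alone and has no replicate. The ratio was above 1 in 204 members within KO and in 195 within CTRL.

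The order of the members was partly shared between the groups. The log2 ratios of KO and CTRL had a Pearson r of 0.49 and a Spearman rho of 0.36 over 232 members, and 0.37 and 0.30 over the 162 members of at least 10 CPM. Over 8917 autosomal and unplaced genes of at least 10 CPM, r was 0.01 and rho was -0.08. CTRL replicate 1 and KO replicate 8, which stood apart in earlier results, are among the W-positive libraries of these ratios. The correlations are not given without them. The 58 members near 1 in KO had a median ratio of 1.2 in CTRL. The 86 members near 1.5 in KO had a median of 1.64 in CTRL, and the 32 near 2 in KO one of 1.65. Members near 1.5 and near 2 in KO were thus not separated by their medians in the single low-W control. At 10 CPM or more the medians in CTRL were 1.37 for 38 members near 1, 1.67 for 65 near 1.5 and 1.64 for 25 near 2.

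**Figure D5:**
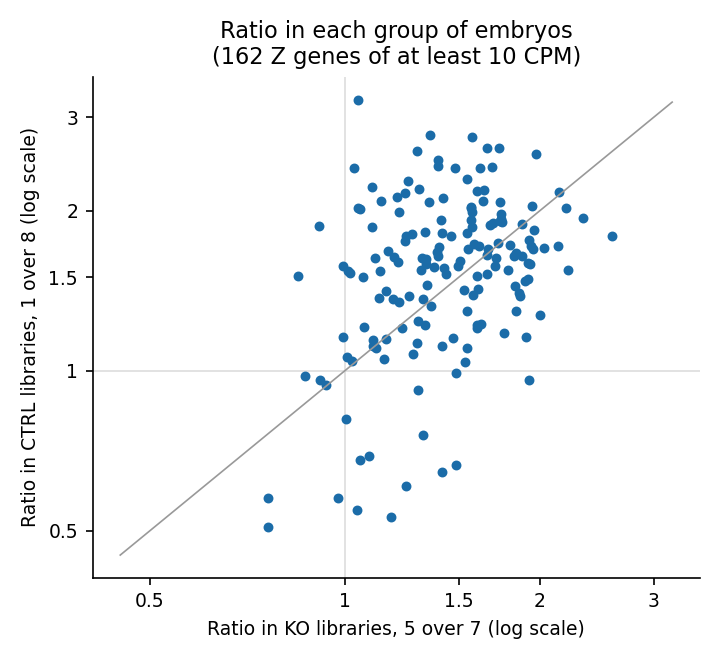
Ratio of low-W to W-positive mean CPM within KO (5 over 7 libraries, x axis, log scale) against that within CTRL (1 over 8 libraries, y axis, log scale), 1 point per member of at least 10 CPM, with the line of equal ratios. The 162 points rise together loosely (r = 0.37), and the median ratio of all members was above 1 in both groups.

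The test of the difference itself, the interaction of W class and group in edgeR, called 0 members at an adjusted p under 0.05 (0% of all genes). At an unadjusted p under 0.05 it had 5 members with a larger ratio in KO than in CTRL (3.35% of all genes) and 4 with a smaller one (1.48% of all genes). The smallest adjusted p of a member was 0.845. The median standard error of this difference was 0.47 on the log2 scale. This is the error of an estimate and not a limit of detection. With 1 low-W control, differences between the groups of that size, and larger ones, could have been missed. The 0 calls therefore do not show that the ratios were equal in KO and CTRL.

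The labelled comparison asked whether targeting MOXD1 goes with a difference in these Z genes. Their summed share of counts was 1.05% ± 0.209 (SD, n = 12) in KO and 0.927% ± 0.154 (SD, n = 9) in CTRL libraries. The groups overlapped, and the difference of 0.119 percentage points did not pass an exact 2-sided permutation test over 293930 splits (p = 0.185, adjusted p = 0.364 over 5 versions of this measure). Within the W-positive libraries the shares were 0.880% ± 0.0387 (SD, n = 7) in KO and 0.878% ± 0.0465 (SD, n = 8) in CTRL. The difference there was 0.00180 percentage points (exact permutation p = 0.942, 6435 splits, adjusted p = 0.942). Low-W libraries made up 5 of 12 KO and 1 of 9 CTRL libraries, as given above.

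Gene by gene, edgeR called 0 members higher and 0 lower in KO at an adjusted p under 0.05 (0% of all genes), and so did DESeq2 (0% of all genes). The smallest adjusted p of a member was 0.675 in edgeR. At an unadjusted p under 0.05, 27 members were higher in KO (2.58% of all genes) and 5 lower (4.5% of all genes). The log2 difference of KO over CTRL was above 0 in 174 of 232 members (75%) and in 46.8% of all genes, with a median of 0.17 over members and -0.02 over autosomal and unplaced genes. The count of 27 depended on single libraries and on the terms of the fit. With the replicate number of the titles as a term it was 53, and with the number in the descriptions it was 62. It was 68 without CTRL replicate 9, 44 without KO replicate 2 or 12, and fell to 17 without CTRL replicate 2, 14 without CTRL replicate 5, 11 without CTRL replicate 6, 14 without KO replicate 1 or 3, 15 without KO replicate 5 and 12 without KO replicate 9. Of the libraries left out here, CTRL replicate 9 and KO replicates 1, 3, 5 and 9 are low-W and the others W-positive. The share of all genes is not given for these settings, and whether it moved in the same way was not tested.

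The comparison was repeated with W class as a term beside group. At an unadjusted p under 0.05, 3 were higher in KO (1.91% of all genes) and 7 lower (2.48% of all genes), with 0 called at an adjusted p under 0.05. The median log2 difference was -0.01, with 113 members (48.7%) above 0, and the smallest adjusted p in edgeR was 0.932. In W-positive libraries alone, 3 of 231 members were higher (1.83% of all genes) and 7 lower (3.93% of all genes) at an unadjusted p under 0.05. Their median was 0.02. With the W class term, the 95% interval of the difference lay within 1.5-fold in either direction in 139 members and within 2-fold in 202, so larger differences between KO and CTRL were outside the interval in those genes.

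The members with the smallest unadjusted p of KO over CTRL are given for their size. The gene at 10978967 to 10990022 on the plus strand was at 69.4, 81.3 and 119 CPM (lowest, median, highest) in KO and at 57.2, 68.4 and 93.0 CPM in CTRL, with overlapping ranges. Its log2 difference was 0.30 with a standard error of 0.09 (edgeR adjusted p = 0.675), and its low-W to W-positive ratio was 1.1. With W class as a term the difference was 0.28. The gene at 16728157 to 16734527 on the minus strand was at 4.60, 6.88 and 11.0 CPM in KO and at 4.16, 5.01 and 8.33 CPM in CTRL. Its log2 difference was 0.47 with a standard error of 0.16 (edgeR adjusted p = 0.704), and it was 0.29 with the W class term. Its low-W to W-positive ratio was 1.59, and CTRL replicate 9 held the highest control value.

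On the lower side, the gene at 16626076 to 16634702 on the minus strand was at 1.45, 2.34 and 6.08 CPM in KO and at 1.19, 4.43 and 17.6 CPM in CTRL. Its log2 difference was -1.14 with a standard error of 0.39 (edgeR adjusted p = 0.704), and the groups overlapped. The gene at 7654557 to 7656593 on the minus strand, with 1 exon record, was at 0.641, 1.52 and 3.54 CPM in KO and at 1.25, 2.97 and 5.25 CPM in CTRL. Its log2 difference was -0.80 with a standard error of 0.28 (edgeR adjusted p = 0.704), and -0.51 with the W class term. Among members picked by the rule for named genes, this gene was the exception in having a ratio below 0.5 between low-W and W-positive libraries. That ratio was 0.426, and edgeR did not call the difference (adjusted p = 0.124).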

How the data were processed

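The authors deposited 1 table of raw counts of fragments per gene and library, with exon positions and exon length. Per the file headers, the authors made the counts by summing exons to genes in featureCounts 2.0.1 with the GRCg6a annotation of Ensembl release 101, counting fragments of read pairs on the reverse strand. The header holds no option for reads with several alignments or several genes, so reads shared by overlapping genes on one strand or by near-identical copies are missing from the counts. STAR, DESeq2, MultiQC, FastQC and bcl2fastq are named in the submitters' processing notes, with versions not given in the sources used here. Per the labels' protocols, 50 ng of total RNA entered a stranded poly(A) kit with 14 PCR cycles. No molecular identifiers are named, so counted fragments need not be independent molecules. The intervals on log2 differences come from edgeR and include the spread between libraries, and those on shares of members are binomial over genes. Groups and replicates come from the sample titles, and p-values set a difference against the spread between these libraries.

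CPM here is the count over the column sum. Tests across genes used edgeR 4.0.16 (R 4.3.3), quasi-likelihood F test, TMM factors, filterByExpr, 2-sided, Benjamini-Hochberg adjustment over 13809 genes, threshold 0.05. Standard errors come from the coefficient and its F value. DESeq2 1.42.0 was an alternative. The script was tested on simulated counts. Over 102 pairs of libraries of one group, chi-square over its degrees of freedom was at least 29.2, so none agreed within sampling noise.

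The members, windows and lists were chosen with earlier results of these data known. The rule for named genes took, among members of at least 10 CPM, the 2 highest and 2 lowest ratios, the 2 closest to 1.5 and the 2 most abundant. It also took the 2 smallest p of KO against CTRL in each direction, members below 10 CPM included, and the genes at each limit. The MOXD1 level, cell type markers, a list of Z genes with a W partner, and sequences were not analysed here, because 0 of 24356 IDs matched the available RefSeq list of another assembly.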

Additional observations from a re-analysis of the deposited data

Results flagged for a closer look

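In the CTRL group of 9 libraries, 14 values were examined for 1 library lying far from the other 8, by the gap to its neighbour over the whole range, and 7 had such a library. For values picked without regard to these libraries, chance alone sets 1 library apart in about 1 of 20 groups. The single genes flagged here were named from these same libraries, so that rate is no yardstick for the 7. In 6 of the 7 the library was CTRL replicate 9, the single low-W control, and the members share that library, so these are not separate observations. Its share of counts on the 232 members was 1.32%, with the other controls at 0.779% to 0.941%. Its median level of members relative to the W-positive libraries was 1.58, with the others at 0.823 to 1.08. The gene at 22789928 to 22948747 stood at 95.4 CPM in it (others 37.5 to 64.5), the gene at 2151248 to 2159334 at 782 CPM (others 359 to 550), the gene at 8540925 to 8562119 at 738 CPM (others 237 to 456) and the gene at 16728157 to 16734527 at 8.33 CPM (others 4.16 to 5.54). The other value was ENSGALG00000004518 in CTRL replicate 1, at 53.3 CPM with the other controls at 6.25 to 15.6 CPM.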

How the results depend on the processing

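The median ratio stayed within 1.41 to 1.49 with each library left out in turn and within 1.42 to 1.52 under the other alternatives. The share near 1 was 18.1% to 26.3% with each library left out, 9.48% in a narrow window (0.9 to 1.1) and 27.2% when every member went to the nearest value. The share near 1.5 was 30.2% to 44.0% with each library left out, 27.3% with no minimum CPM, 19.8% in a narrow window (1.4 to 1.6) and 48.3% by nearest value. The share near 2 was 13.4% to 18.1% with each library left out, 22.0% after division by the autosomal median, 5.17% in a narrow window (1.9 to 2.1) and 24.6% by nearest value. Members called higher in low-W libraries numbered 65 to 94 with each library left out, 49 in KO libraries alone and 52 in those without KO replicate 8, fits with fewer libraries. The main fit called 88 members higher, against 1.46% of all genes tested. The shares of all genes in the other fits are not given here. Members whose sets did not overlap numbered 42 to 56 with each library left out. For a fixed list of members, leaving out a library can only keep or raise this count, so the range is no check of its stability. The share of counts in KO over CTRL differed by 0.0942 to 0.168 percentage points with each library left out, and KO against CTRL called 0 members in all 31 alternatives. Of 372 alternative values of the 12 single-gene results, 345 kept direction and side of the threshold, 22 lost it, 5 gained it and 0 reversed. Where no construction is named, the cause was not tested. The alternative with autosomal scaling in the ratios, both left-out KO replicate 8 settings, those on non-overlap and the interaction were chosen after seeing the data.

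The sample descriptions number some libraries differently from the titles, and no label says that a number marks a shared source. For the numbers in the titles, the correlation of the deviations of same-numbered CTRL and KO libraries ran from -0.43 to 0.43 over 9 pairs, over 0.1 in 6, and 1 CTRL library was closest to its own number. For the numbers in the descriptions, a check added after seeing the data, it ran from -0.21 to 0.43 over 8 pairs, over 0.1 in 6, and 2 CTRL libraries were closest to their own number. With the replicate block from the titles, 3 members were called higher in low-W libraries, 2 of them among the 88, and 0 in KO against CTRL. With the replicate block from the descriptions, 2 members were called higher in low-W libraries, both among the 88, and 0 in KO against CTRL. The shares of all genes called higher in low-W libraries with a block are not given here. Under a block, the W class difference rests on same-numbered CTRL and KO libraries of unlike W class, set against those of like class. In the titles the unlike ones are replicates 1, 3 and 5, and in each the KO library is the low-W one. Within those replicates alone, W class and group cannot be told apart. The fits with a block thus hold far less information than the main fit, and what lowered the counts was not tested.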
